A study of Mus musculus with 4 samples.

Results

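The genes described here are 9 genes of the p53 pathway, the tumour suppressor gene Trp53 itself and 8 of its well-known transcriptional targets: Mdm2, Cdkn1a, Ccng1, Bbc3, Phlda3, Trp53inp1, Rrm2b and Zmat3. They were found by symbol, 1 row each, among the 55450 features of the count matrices, and all 9 were detected in every class of cells tested. The cells came from tumours of MC38, a mouse colon carcinoma line, grown under the skin of the left flank after injection of 2000000 cells into C57BL/6J mice 8 weeks old. In the KO group the injected cells lacked Hnrnpa2b1, which encodes an hnRNP that binds RNA, and in the WT group they kept it. The mice of both groups were C57BL/6J, and no agent other than the injected cells is named in the labels. Each group held 2 tumours, 1 single-cell library each. The sources used here do not say whether the KO cells were a clone, which part of the gene was altered or which sex the mice had, and nothing in the labels says how many mice gave the tumours, so p-values measure only the spread between these tumours.

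The protein p53 is a transcription factor that is stabilised when DNA is damaged, when oncogenes are active or when ribosome assembly is disturbed. It then binds paired copies of a short DNA element and raises genes that stop the cell cycle (Cdkn1a, which encodes the CDK inhibitor p21), repair DNA or supply nucleotides for it (Rrm2b), start apoptosis (Bbc3, which encodes Puma) or shut p53 off again (Mdm2, which encodes the ubiquitin ligase that marks p53 for destruction, and Ccng1). Several of these genes, Cdkn1a above all, are also raised by other transcription factors, so their RNA alone does not measure p53 activity. MC38 cells are reported to carry missense changes of Trp53, and sequence variation was not analysed here.

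The start regions of the genes were searched for p53 elements, and the matches are shown. RefSeq promoter windows on GRCm38.p6, each from 250 bases before to 50 bases after an annotated start, were at hand for 6 of the 9 genes (9 windows) and were searched on both strands. The search took the p53 consensus, a 10-base element, either alone with no mismatch or as 2 adjoining elements of 20 bases with at most 3 mismatches. Each of the adjoining elements had to keep the C and the G of its core. Distances are from the RefSeq start of the window, which for Cdkn1a, Ccng1 and Bbc3 is not the outermost GENCODE start of the gene, and the Bbc3 window lies inside the gene as GENCODE draws it. Sites are printed 5′ to 3′ on the strand of the gene, with the site in capitals and 5 flanking bases on each side in lower case. Rrm2b, Zmat3 and Trp53inp1 are named only.
Cdkn1a, chr17:29090928-29090947, plus strand, 1 mismatch, starting 51 bases before the RefSeq start: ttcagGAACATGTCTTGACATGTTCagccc
Ccng1, chr11:40755462-40755481, minus strand, 1 mismatch, starting 195 bases before the RefSeq start: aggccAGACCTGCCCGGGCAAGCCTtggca
Trp53, chr11:69580284-69580303, plus strand, 3 mismatches, starting 75 bases before the RefSeq start: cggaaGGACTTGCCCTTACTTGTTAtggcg
Bbc3, chr7:16309486-16309505, plus strand, 3 mismatches, starting 97 bases before the RefSeq start: cccgaCTGCAAGCCCCGACTTGTCCccagc
Mdm2, chr10:117710935-117710944, minus strand, a single element, starting 186 bases before the RefSeq start: gatagGAACTTGCCTagcga
Paired elements were found at the starts of Cdkn1a, Ccng1, Trp53 and Bbc3, and a single element at Mdm2. The same Cdkn1a window held a further single element outside the pair, not printed, at chr17:29090906-29090915, starting 73 bases before the RefSeq start. There was no match in the Phlda3 window or in the windows of a later Cdkn1a start and of the other Bbc3 starts. Of all 32851 promoter windows, 1.38% held a paired element by the same rule and 8.36% a single element. A match is a description of letters and no match says only that they are not in this window.

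The libraries held between 114136609 and 153162562 UMIs (unique molecular identifiers, each a captured RNA molecule), and between 8648 and 11344 cells per tumour were analysed. Libraries shared between 21 and 41 cell barcodes in pairs. Cells were grouped in classes named by marker genes, and the name of a class means cells like that type. No cluster carried the epithelial markers of a carcinoma, whose summed level in the candidate tumour cells was 40.3 to 58.2 CPM (counts per 1000000 UMIs of the class and tumour). The class that stands in for tumour cells is therefore called Xist-low cells, after the rule that joined its clusters: a mean under 1 UMI per 10000 of Xist, an RNA of female cells, and of Ptprc, the gene of the leukocyte antigen CD45. This rule was chosen with the data in view. Xist-low cells made up 75.6% of cells in WT tumour 1, 69.9% in WT tumour 2, 15.9% in KO tumour 1 and 30.5% in KO tumour 2. Hnrnpa2b1 itself in this class stood at 550 and 545 CPM with WT cells injected and at 381 and 319 CPM with KO cells (log2 fold change -0.71, SE 0.13, edgeR adjusted p = 0.0274), so RNA of the targeted gene was lower but present, and since the altered part of the gene is not known this is a weak check of the labels. In mononuclear phagocytes it did not pass the test (-0.13, adjusted p = 0.749).

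UMIs were summed per tumour and class, and levels below are CPM of that sum, without TMM. Fold changes are KO over WT from edgeR's quasi-likelihood test after TMM scaling, with p-values adjusted by Benjamini-Hochberg over all genes tested in the class and a threshold of 0.05. Droplet counts of a class do not separate a gene's level in all cells from its presence in more cells. Groups said not to overlap are described only: 2 against 2 exchangeable tumours separate with a chance of 0.333. The share of all genes whose groups separate was not counted.

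In Xist-low cells Cdkn1a rose 1.7-fold in the KO tumours and Rrm2b fell to 0.693 of its WT level. The other 7 genes did not pass the test, so the count is 2 of 9, beside 9.45% of the 18004 genes tested in this class. The median log2 fold change of the 9 genes was -0.05 and that of all genes tested -0.01.

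Trp53, the source of the pathway, was read at 156 CPM in Xist-low cells of WT tumour 1, 176 in WT tumour 2, 220 in KO tumour 1 and 197 in KO tumour 2. Pairs of values below keep this order of tumours. Both KO values lay above both WT values, and the difference did not pass the test (log2 fold change 0.27, SE 0.12, adjusted p = 0.18). The mouse genome also holds a Trp53 pseudogene, Trp53-ps, a feature of its own in the matrices, and how reads shared with it were handled was not checked. Mdm2, the main brake on p53, showed a similar picture, with 25.5 and 26.3 in WT and 34.3 and 35.2 in KO (0.37, SE 0.11, adjusted p = 0.0745).

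Cdkn1a, which stops the cell cycle before DNA replication, was at 115 and 128 CPM in WT and at 227 and 204 in KO. The groups did not overlap, and the log2 fold change was 0.77 (SE 0.12, adjusted p = 0.0182). The transcript annotated opposite to Cdkn1a, AC167363.2, overlaps it, and counting by strand is not stated. Ccng1, the gene of cyclin G1, has a paired p53 element like Cdkn1a but stood at 22 and 26.2 in WT and at 25.8 and 19.9 in KO, with overlapping groups (-0.14, SE 0.14, adjusted p = 0.531).

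Among the genes tied to cell death, Bbc3 read 21.8 and 19.8 CPM in WT and 21.7 and 31.3 in KO, so that KO tumour 2 alone stood apart (0.30, SE 0.2, adjusted p = 0.357). Phlda3, which encodes a small protein that restrains the kinase Akt, gave 204 and 204 in WT and 159 and 152 in KO. Its groups did not overlap, its log2 fold change of -0.44 (SE 0.11) missed the threshold with edgeR (adjusted p = 0.0519), and DESeq2 gave 0.0048. Trp53inp1, a nuclear protein gene of the p53 stress response, was near the floor of detection in this class: 0.799 and 0.761 in WT, and 0.819 and 0.537 in KO, or 43 to 91 UMIs per tumour (-0.28, SE 0.32, adjusted p = 0.588). With an estimated share of free RNA taken away, as described below, Trp53inp1 gave -1.91 (edgeR adjusted p = 0.0273). This rests on 66, 59, 8 and 15 UMIs left in WT 1, WT 2, KO 1 and KO 2. The levels taken away were 0.223 and 0.154 in WT and 0.666 and 0.363 in KO, the latter close to those measured, so the value depends on the estimate. Another estimate left 0 and 0 UMIs in KO and no value.

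Of the remaining targets, Rrm2b encodes the p53-inducible small subunit of ribonucleotide reductase, which makes deoxynucleotides. It stood at 18.3 and 20.6 CPM in WT and at 14.8 and 13.2 in KO, again without overlap (log2 fold change -0.53, SE 0.12, adjusted p = 0.0398). The call was lost without WT tumour 2 (-0.46, adjusted p = 0.0561), without KO tumour 1 (-0.56, 0.135), without KO tumour 2 (-0.50, 0.185) and with library totals in place of TMM (-0.47, 0.0796). Rrm2b also overlaps the processed pseudogene Gm3362 on its own strand and the antisense gene Gm49085, and its count is uncertain for that reason. Zmat3, which encodes an RNA-binding zinc finger protein, was level across tumours at 8.09, 9.27, 9.03 and 8.35 in WT 1, WT 2, KO 1 and KO 2 (-0.05, SE 0.14, adjusted p = 0.831).

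**Figure D1:**
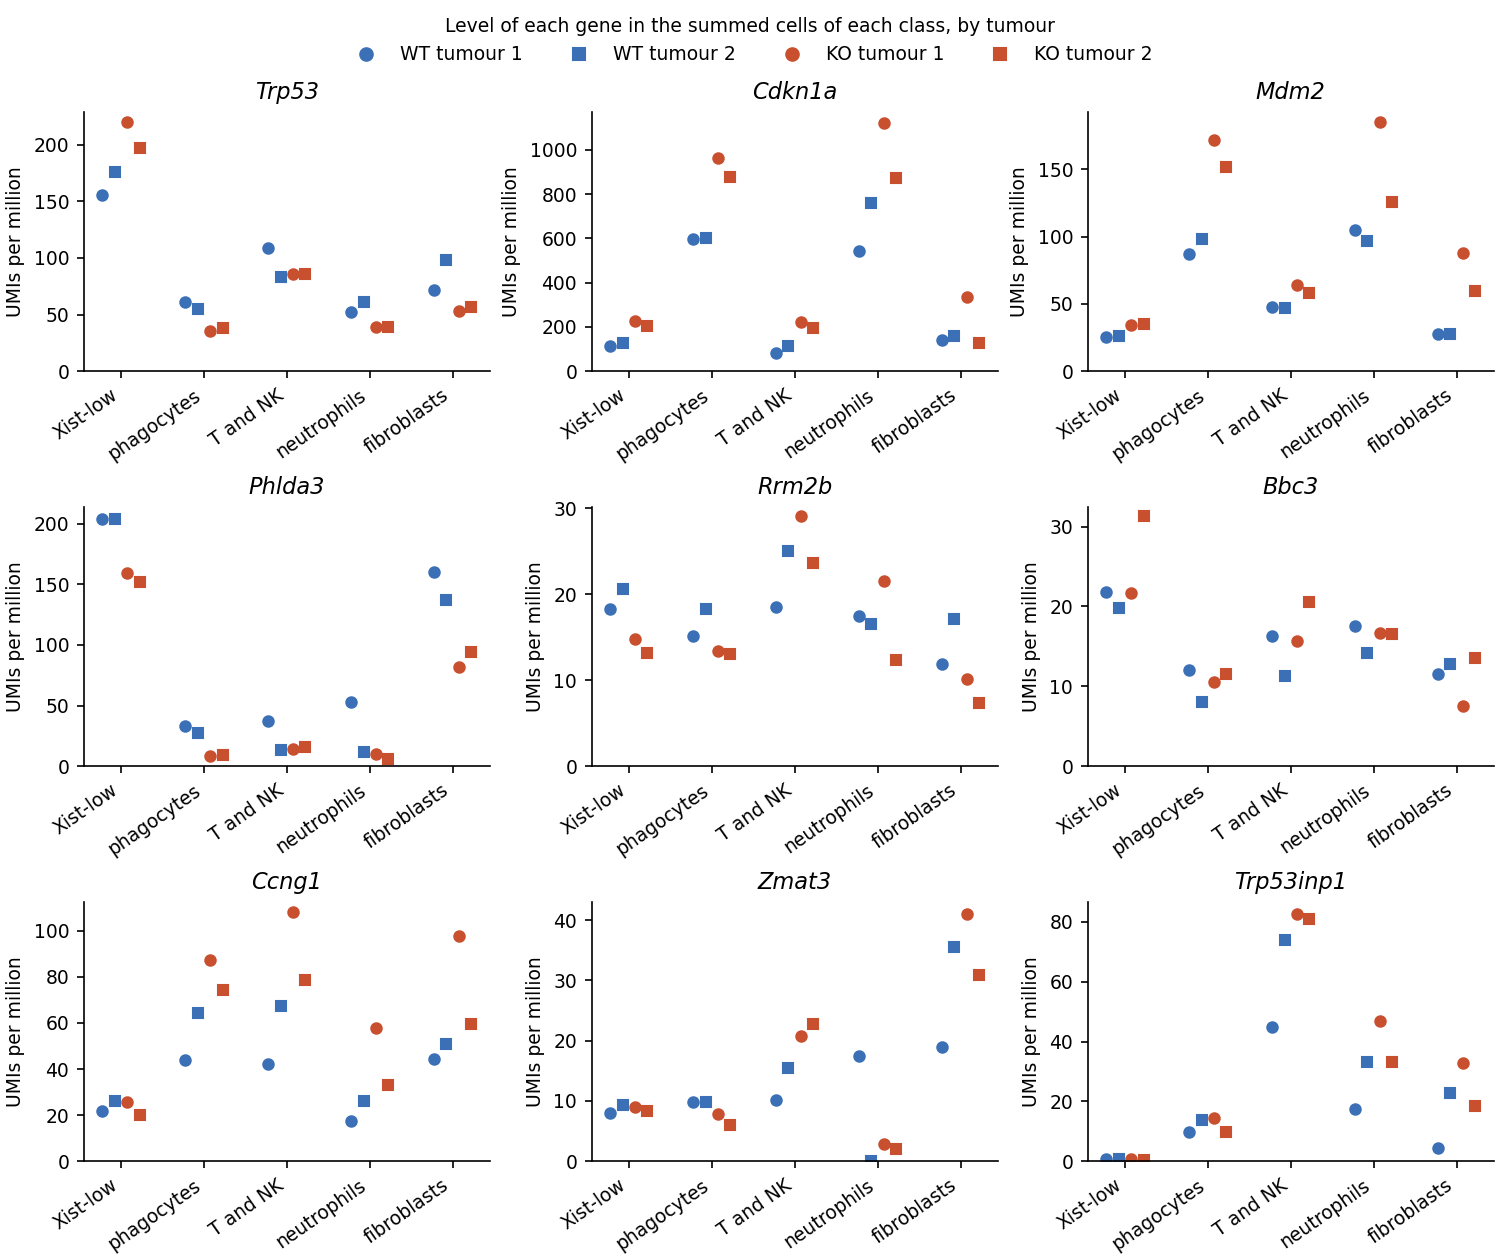
Level of each gene, in CPM (UMIs per 1000000), in the summed cells of 5 classes. Each point is 1 tumour (blue WT, red KO; circle tumour 1, square tumour 2), and each panel has its own axis from 0. Trp53 and Phlda3 were highest in Xist-low cells, Cdkn1a in neutrophils and phagocytes, and Trp53inp1 in T and NK cells.

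The clusters behind the Xist-low class differed between groups. Cluster 13, led by Gja4 and Cxcl10, held 40.3% and 31.5% of Xist-low cells in KO but 0.967% and 1.81% in WT. Cluster 8, led by Nppb and Il11 among others, held 21.2% and 38.7% in KO and 5.43% and 5.29% in WT. Clusters 0, 1, 3 and 5 together formed most of the class in the WT tumours and had under 50 cells in at least 1 KO tumour. Xist-low cells of the KO tumours were also read more deeply, with median UMIs of 38550 and 31473 against 11883 and 11715. The part of cluster make-up and depth in the changes of the whole class was not tested beyond the fits that follow.

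Within the 5 clusters that held at least 50 cells in each tumour, Cdkn1a had a positive log2 fold change every time. It passed the test only in cluster 18, which is led by the interferon-induced genes Ifit3 and Ifit1 (1.01, SE 0.25, adjusted p = 0.0441, beside 4.03% of genes called there). Its level there was 115 and 166 CPM in WT and 390 and 199 in KO. In cluster 8 the groups overlapped, at 114 and 194 in WT and 198 and 183 in KO. In clusters 9, 10, 13 and 18 they did not. WT tumour 1 was at 94.8 in cluster 10 and 108 in cluster 13, and WT tumour 2 at 140 and 222. The log2 fold changes in clusters 8, 9, 10 and 13 were 0.28, 0.81, 0.46 and 0.58. Their adjusted p was 0.527, 0.302, 0.281 and 0.291, beside 1.63%, 1.31%, 0.126% and 0.339% of genes called. Cluster 9, led by Gm26917 among others, held few UMIs per cell, with medians of 1317 and 3466 in WT and 1684 and 1026.5 in KO. Its KO sums held 54 and 80 UMIs of Cdkn1a and 26 and 25 of Phlda3, so all values in this cluster rest on few counts. Rrm2b was negative in the same 5 clusters, from -0.56 in cluster 10 to -0.04 in cluster 9, and passed the test in none of them. Phlda3 was near 0 in the 2 clusters that held most KO cells, with -0.06 in cluster 8 (adjusted p = 0.855) and -0.09 in cluster 13 (adjusted p = 0.808). It was -0.85 in cluster 9 (adjusted p = 0.261), -0.51 in cluster 18 (0.0913) and 0.18 in cluster 10 (0.591), and the tumours of the 2 groups overlapped in clusters 8, 10 and 13 but not in clusters 9 and 18.

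**Figure D2:**
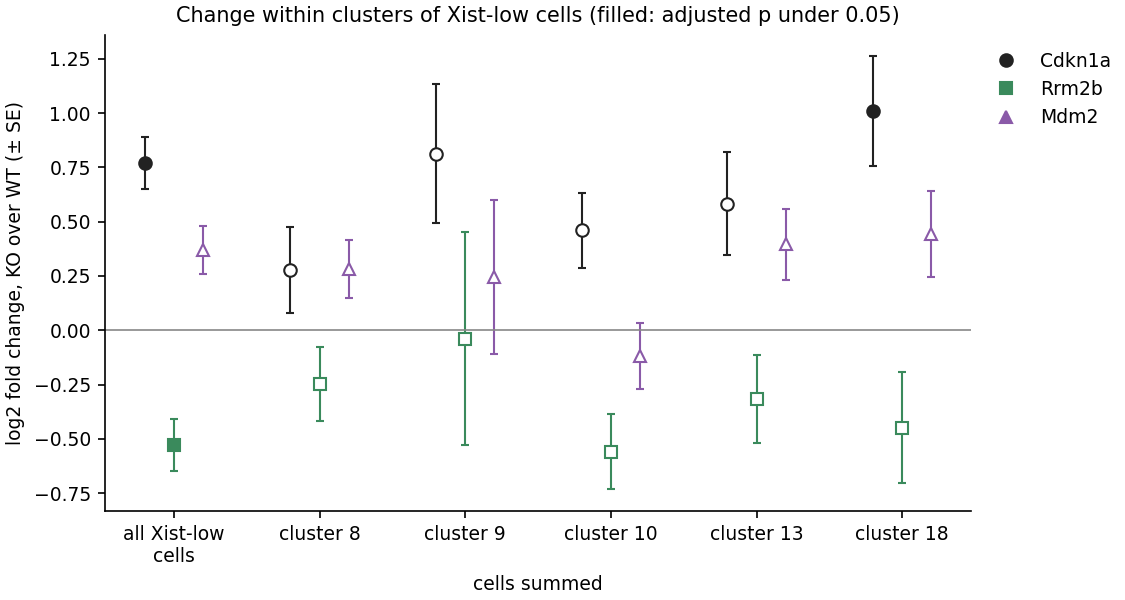
Log2 fold change of Cdkn1a, Rrm2b and Mdm2, KO over WT, in all Xist-low cells and within each of the 5 clusters with at least 50 cells in every tumour. Bars are standard errors and filled symbols have an adjusted p under 0.05; Cdkn1a was filled for all Xist-low cells (0.77) and for cluster 18 (1.01).

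In mononuclear phagocytes, the class of monocytes and macrophages, Mdm2 rose 1.87-fold in KO tumours and Phlda3 fell to 0.315 of its WT level. These 2 of 9 genes stand beside 3.89% of the 12829 genes tested (1.85% rose, 2.04% fell). Mdm2 was at 87.3 and 98.4 CPM in WT and at 172 and 152 in KO, with no overlap (log2 fold change 0.90, SE 0.18, adjusted p = 0.0364). Cdkn1a was high in both groups, at 597 and 603 in WT and at 962 and 877 in KO, and its fold change missed the threshold (0.72, SE 0.2, adjusted p = 0.0904). Ccng1 read 44 and 64.4 in WT and 87.4 and 74.3 in KO (0.64, SE 0.22, adjusted p = 0.145). Ccng1 was 1.07 and passed without WT tumour 2 (adjusted p = 0.0394) and was 0.40 without WT tumour 1. Trp53 read 60.7 and 54.5 in WT and 35.4 and 38.4 in KO (-0.53, SE 0.17, adjusted p = 0.123), with 30.3 and 34 in WT and 11.3 and 11.3 in KO expected from free RNA as described below. For both genes the groups did not overlap. Levels of Rrm2b, Bbc3, Zmat3 and Trp53inp1 lay between 5.94 and 18.3 in all 4 tumours, and their adjusted p ran from 0.452 to 0.914.

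The class as named leaves out a cluster that carried all 12 phagocyte markers but was led by other genes (Ccl24, Chil3, Mmp12). It held 77.6% and 52.5% of the joint cells in WT and 8.3% and 14.2% in KO. Its Mdm2 level was 46.6 and 69.9 CPM in WT and 138 and 93.6 in KO, and its Cdkn1a level 563 and 683 in WT and 718 and 675 in KO. In that cluster alone no member passed, beside 0.732% of genes called. With this cluster joined to the class the Mdm2 value was 1.25 (adjusted p = 0.0803) and that of Phlda3 -1.34 (adjusted p = 0.0732), beside 0.186% of genes called. Mdm2 also lost its call without KO tumour 1 (0.84, adjusted p = 0.102), with clustering at resolution 2.0 (1.18, adjusted p = 0.0904), at which no gene of the class was called, and with library totals (0.80, adjusted p = 0.0581).

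Phlda3 in phagocytes lay near the level that free RNA alone would give. Free RNA, released by broken cells and captured with every cell, was estimated per class and tumour from markers of other classes. Its profile was taken as the sum of all barcodes of the library, not from empty droplets. The estimated share was 20.6%, 20.5%, 7.89% and 7.15% of phagocyte UMIs in WT 1, WT 2, KO 1 and KO 2. From that share Phlda3 was expected at 39.2 and 38.9 CPM in WT and at 7.47 and 8.31 in KO. Measured were 33.4 and 27.4 in WT and 8.32 and 9.27 in KO (-1.67, SE 0.21, adjusted p = 0.0153). In neutrophils Phlda3 read 11.8 in WT tumour 2 and 6.21 in KO tumour 2, against 45 and 17.9 expected. Values well under the expected level mean that the estimate was too high for this gene, and subtraction then takes too much. After subtraction 0, 0, 20 and 14 UMIs were left in WT 1, WT 2, KO 1 and KO 2, and no fold change is given. The same subtraction took Mdm2 to 0.66 (adjusted p = 0.229), and 0 genes of the class were then called by edgeR.

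**Figure D3:**
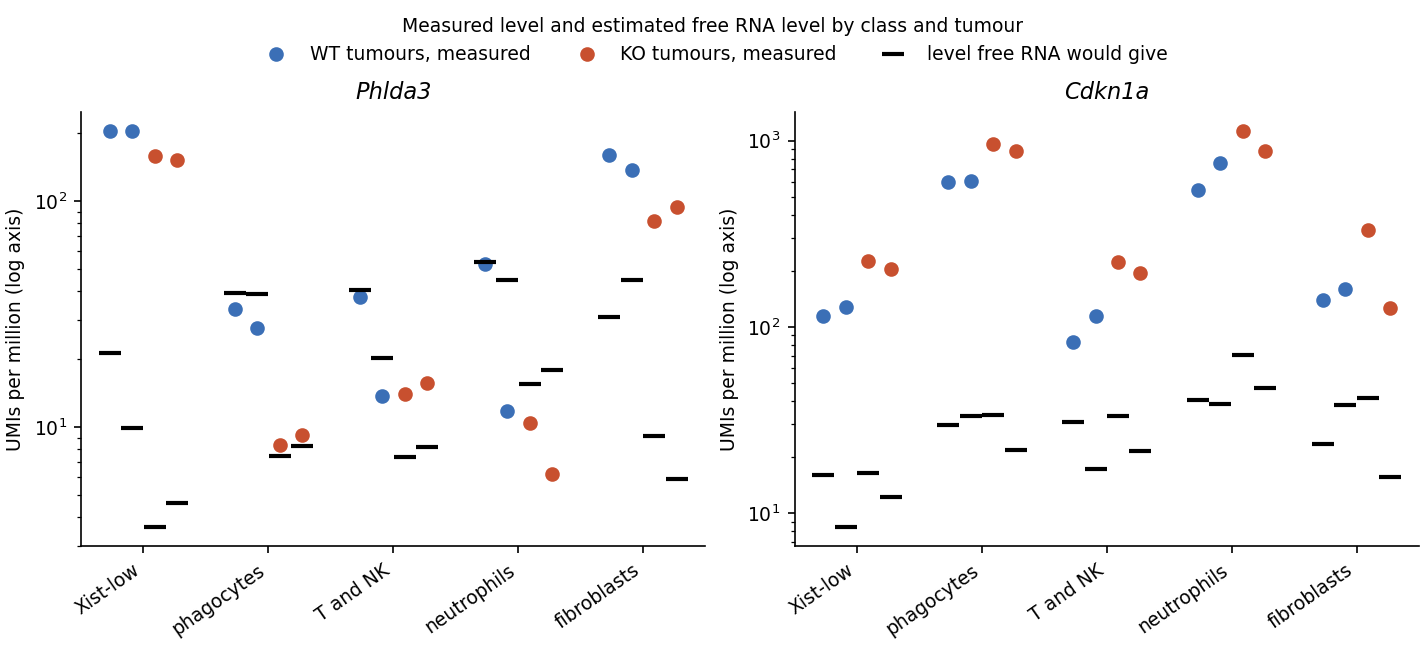
Measured level (points) and level expected from free RNA (black bars) of Phlda3 and Cdkn1a, in CPM on a log axis, by class and tumour. Phlda3 was near or under the bar in phagocytes and neutrophils, whereas Cdkn1a stood above it in all 5 classes, with 597 to 962 measured in phagocytes. A bar well above its point means that the estimate was too high there.

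Cdkn1a rose 1.99-fold in T and NK cells of the KO tumours. It was at 82.5 and 114 CPM in WT and at 222 and 195 in KO, with no overlap (log2 fold change 0.99, SE 0.22, adjusted p = 0.0464). Cdkn1a was the 1 gene of 9 to pass, beside 3.66% of the 12611 genes tested (2.06% rose, 1.6% fell). The call was lost without KO tumour 1 (0.92, adjusted p = 0.0607), after free RNA subtraction (1.02, adjusted p = 0.122), at resolution 2.0 (0.89, adjusted p = 0.0648) and over named sub-clusters only (0.86, adjusted p = 0.0899, beside 2.26% of genes called). Unnamed sub-clusters were 38% and 38.8% of the class in WT and 13.7% and 15.7% in KO. In CD8 T cells alone the value was 0.59 (adjusted p = 0.313, beside 0.00957% of genes called) and in NK cells alone 0.72 (adjusted p = 0.138, beside 3.5%). The 12 phagocyte markers, none at 0, summed to 865 and 1000 CPM in T and NK cells in WT and to 1530 and 1340 in KO, against 10200 to 14000 in phagocytes, and their part in the Cdkn1a value was not tested.

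Ccng1, Zmat3, Mdm2 and Trp53inp1 did not pass the test in T and NK cells. Their groups did not overlap, which alone is no sign of a change with 2 tumours each. Ccng1 stood at 42.1 and 67.4 CPM in WT and 108 and 78.8 in KO (0.68, SE 0.27, adjusted p = 0.172). Zmat3 was 10.1 and 15.5 in WT and 20.8 and 22.7 in KO (0.69, SE 0.28, adjusted p = 0.181). Mdm2 was 47.7 and 47.1 in WT and 63.9 and 58.2 in KO (0.29, SE 0.16, adjusted p = 0.313). Trp53inp1 was 44.9 and 73.9 in WT and 82.6 and 80.9 in KO (0.37, SE 0.25, adjusted p = 0.41). WT tumour 1 was the lowest of the 4 tumours for Ccng1, Zmat3 and Trp53inp1, and without WT tumour 2 a total of 5 genes passed, namely Cdkn1a, Ccng1 (1.19), Zmat3 (1.15), Trp53inp1 (0.90) and Phlda3 (-1.30), beside 16.1% of genes called in that fit. Phlda3 with all tumours read 37.6 and 13.7 in WT and 14.1 and 15.7 in KO (-0.85, adjusted p = 0.159), beside 40.6 and 20.3, and 7.4 and 8.21, expected from free RNA. Trp53, Rrm2b and Bbc3 had overlapping groups, with adjusted p from 0.37 to 0.668.

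**Figure D4:**
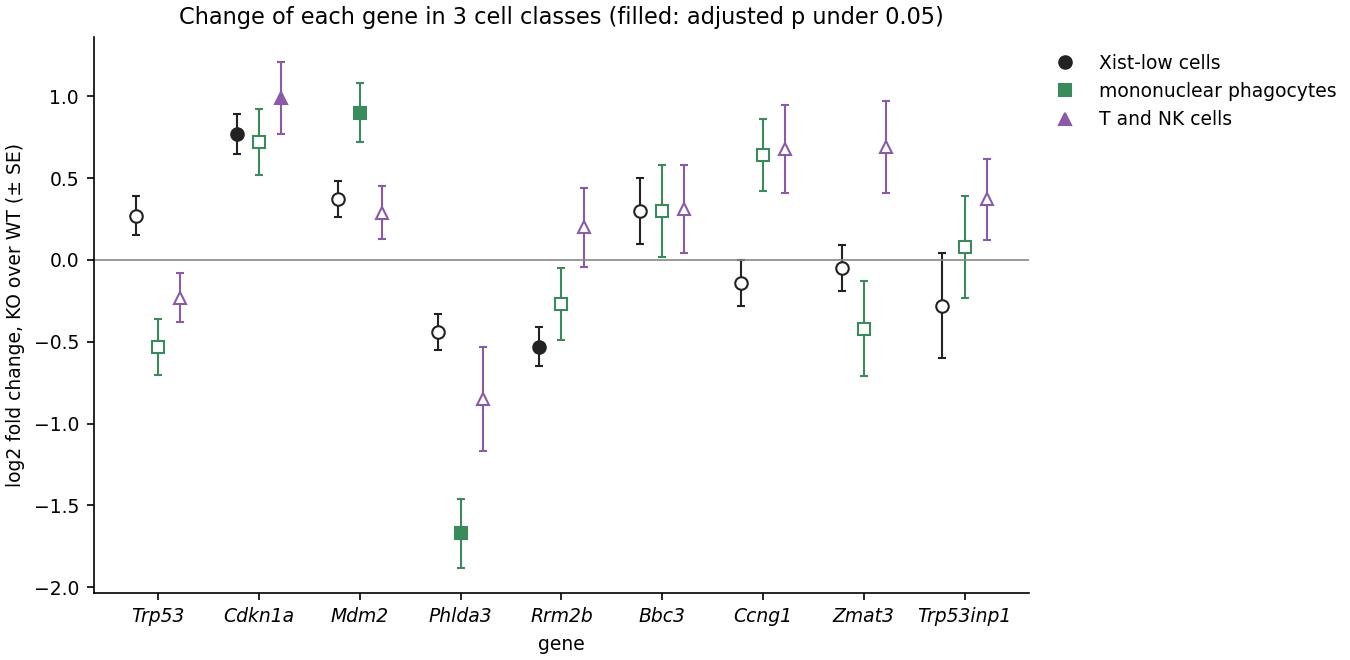
Log2 fold change of each of the 9 genes, KO over WT, in Xist-low cells, mononuclear phagocytes and T and NK cells. Bars are standard errors and filled symbols have an adjusted p under 0.05; Cdkn1a lay between 0.72 and 0.99 in the 3 classes, while Trp53 was 0.27 in Xist-low cells and -0.53 in phagocytes.

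No gene passed in neutrophils or fibroblasts, where 0% of 4757 and 0% of 11579 genes were called by edgeR, 650 and 1593 had an unadjusted p under 0.05, and DESeq2 called 0 and 167. Neutrophils numbered 51 cells in WT tumour 1, and 5 of the 9 genes had counts enough for the test. Cdkn1a in neutrophils was 544 and 760 CPM in WT and 1120 and 874 in KO (0.52, SE 0.36, adjusted p = 0.556), and Mdm2 was 105 and 97 in WT and 185 and 126 in KO (0.59, SE 0.35, adjusted p = 0.475). Mdm2 in fibroblasts had the largest fold change of this gene in any tested class, with 27.9 and 27.5 in WT and 87.6 and 59.9 in KO (1.48, SE 0.26, adjusted p = 0.201), and DESeq2 gave an adjusted p of 0.0314. Cdkn1a in fibroblasts was high in 1 tumour only, with 139 and 159 in WT, 333 in KO tumour 1 and 126 in KO tumour 2 (0.69, SE 0.48, adjusted p = 0.579). Phlda3 in fibroblasts was 160 and 137 in WT and 82.1 and 94.3 in KO (-0.68, SE 0.22, adjusted p = 0.323), well above the free RNA level.

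Whether a gene differed in its change between Xist-low cells and phagocytes was tested in 1 fit over both classes with a term for each tumour. The difference passed for 4 of 9 genes, beside 10.4% of the 17622 genes tested (5.35% with a positive and 5.05% with a negative difference). Relative to phagocytes the change in Xist-low cells was more positive for Trp53 (difference of log2 fold changes 0.70, SE 0.21, adjusted p = 0.0331) and Phlda3 (1.12, SE 0.23, adjusted p = 0.00156), and more negative for Mdm2 (-0.63, SE 0.19, adjusted p = 0.03) and Ccng1 (-0.91, SE 0.19, adjusted p = 0.00169). For Cdkn1a it was -0.05 (SE 0.21, adjusted p = 0.928). After free RNA subtraction Trp53 gave 0.38 (adjusted p = 0.599), Mdm2 -0.36 (0.543) and Ccng1 -0.68 (0.278), Phlda3 had too few UMIs for a value, and 53 of 17365 genes were called. With the unnamed macrophage cluster Ccng1 alone passed (-0.82, adjusted p = 0.0279). The Mdm2 difference lost its call in all 9 alternatives run, among them no filter (adjusted p = 0.0745), library totals (-0.37, 0.235), and each tumour left out, WT 1 (0.0698), WT 2 (0.0537), KO 1 (0.515) and KO 2 (0.155). The Trp53 difference lost it without WT tumour 1 (0.52, 0.12), WT tumour 2 (0.81, 0.0546) or KO tumour 1 (0.57, 0.513), that of Phlda3 without KO tumour 1 (1.02, 0.0767) and that of Ccng1 without KO tumour 2 (-0.79, 0.0687).

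The 9 genes differed in where they were high, given here as a description with no test between classes. Trp53 in Xist-low cells, at 156 to 220 CPM, exceeded every tumour's value in the 4 other tested classes (35.4 to 109), and those classes overlapped in part. Phlda3 in Xist-low cells, at 152 to 204, overlapped with fibroblasts at 82.1 to 160. Endothelial cells were at 58.6 to 130, with as few as 19 cells in a tumour. Cdkn1a was ordered otherwise: neutrophils (544 to 1120), phagocytes (597 to 962) and dendritic cells (707 to 886) overlapped with each other and stood above T and NK cells (82.5 to 222), fibroblasts (126 to 333), endothelial cells (199 to 258) and Xist-low cells (115 to 227), which overlapped too.

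Mdm2 had the same upper classes among those tested, phagocytes at 87.3 to 172 CPM and neutrophils at 97 to 185, while Xist-low cells at 25.5 to 35.2 overlapped only with the WT fibroblasts at 27.5 and 27.9. Trp53inp1 ranged from under 1 CPM in Xist-low cells of every tumour to 44.9 to 82.6 in T and NK cells and 65.7 to 182 in regulatory T cells, of which the fewest were 48 in a tumour. Ccng1 was at 19.9 to 26.2 in Xist-low cells and reached 108 in T and NK cells and 97.8 in fibroblasts. Among the tested classes Zmat3 was highest in fibroblasts (18.9 to 41), which overlapped with T and NK cells (10.1 to 22.7). Bbc3 in Xist-low cells (19.8 to 31.3) overlapped with T and NK cells (11.3 to 20.5). Its Xist-low values lay above phagocytes (8.05 to 12.1), neutrophils (14.2 to 17.5) and fibroblasts (7.48 to 13.6). Rrm2b in T and NK cells (18.5 to 29.1) overlapped with Xist-low cells (13.2 to 20.6) and neutrophils (12.4 to 21.6). Its T and NK values lay above phagocytes (13.1 to 18.3) and fibroblasts (7.32 to 17.1). Both genes had 1 UMI in neutrophils of WT tumour 1.

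Likeness of pattern was measured as Pearson's r of log levels over 28 sums, 4 tumours in each of 7 classes (the 5 tested ones, CD8 T cells and NK cells), among 8930 genes. The sums share libraries, and CD8 and NK cells are also part of the T and NK class, so r is a description. Cdkn1a was most like the myeloid receptor genes Clec4n (r = 0.95) and Tlr2 (0.941) and the gene Nfam1 (0.939). Mdm2 was most like Gm43775 (0.918), Rbm47 (0.912) and Ppt1 (0.909), and Ccng1 most like Akt2 (0.892), Tmem30a (0.885) and mt-Nd3 (0.863). Between the 9 genes themselves, Cdkn1a and Mdm2 ran together (r = 0.845), Trp53 ran opposite to Mdm2 (-0.833) and to Cdkn1a (-0.701), and Phlda3 opposite to Trp53inp1 (-0.758).

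Other genes of the pathway were described in Xist-low cells from 4 lists. None of the 17 tested of 20 p53 regulators changed by edgeR or DESeq2, and 3 had an unadjusted p under 0.05. The list's median log2 fold change was 0.02. Atr, a kinase of the DNA damage response, came nearest, at 15.6 and 18.8 CPM in WT and 24.6 and 22.6 in KO (0.40, SE 0.13, adjusted p = 0.0903), and it passed without WT tumour 2 (0.52, adjusted p = 0.031). Among 33 other p53 targets 31 were tested, 2 rose, 1 fell and the median was 0.10, beside 4.87% of all genes that rose and 4.58% that fell. DESeq2 called 7 of them, and by DESeq2 1440 of the 18004 genes rose and 1274 fell.

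Of these targets, the stress kinase gene Plk3 had the largest change, at 9.84 and 7.67 in WT and 24.4 and 24.8 in KO (log2 fold change 1.43, SE 0.16, adjusted p = 0.00908). It also passed within clusters 8, 13 and 18, and in clusters 9 and 10 it was 1.39 (adjusted p = 0.356) and 1.11 (0.0853). Sesn2, whose protein restrains mTORC1 and is induced by nutrient stress as well as by p53, was 13.8 and 15 in WT and 27.6 and 31.6 in KO (0.99, SE 0.14, adjusted p = 0.0145). Within clusters Sesn2 passed in cluster 18 (1.58) and not in clusters 8, 9, 10 and 13, where it ran from 0.50 to 0.91. Xpc, which recognises DNA damage for excision repair, was 22.4 and 18.2 in WT and 12.9 and 13.3 in KO (-0.69, SE 0.15, adjusted p = 0.0366), and lost its call without KO tumour 1 (-0.61, 0.115) or KO tumour 2 (-0.76, 0.0606).

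The list of CDK inhibitors and G1 cyclins had 14 of 16 genes tested, of which 3 rose and 2 fell, with a median of 0.26, again beside 4.87% of all genes that rose and 4.58% that fell. Cdkn1b, which encodes the CDK inhibitor p27, fell in the whole class: it was 48 and 47 in WT and 25.9 and 25.8 in KO (-0.93, SE 0.1, adjusted p = 0.00908). Cdkn2c, the gene of the inhibitor p18, fell too, from 23 and 33.4 to 16.5 and 12.8 (-1.01, SE 0.19, adjusted p = 0.0276). Ccne1, the gene of cyclin E1, which drives entry into DNA replication, was 12.5 and 11.7 in WT and 32.5 and 21.8 in KO (1.10, SE 0.17, adjusted p = 0.0182). Within clusters Cdkn1b (-1.04) and Ccne1 (1.52) passed in cluster 18 only. In the other 4 clusters Cdkn1b ran from -0.71 to -0.26 and Ccne1 from 0.23 to 0.56, and Cdkn2c passed in none and was 0.46 in cluster 9. Ccnd3 (0.43, adjusted p = 0.0449) and E2f1 (0.42, adjusted p = 0.0473) rose less and lost their calls when any 1 tumour was left out, with adjusted p between 0.0567 and 0.267.

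In the BCL2 family, which sets the threshold for apoptosis, 14 of 15 genes were tested, 2 rose, 1 fell and the median was 0.15, beside the same 4.87% and 4.58% of all genes. The pro-apoptotic gene Bcl2l11, which encodes Bim, was 15.5 and 14.1 in WT and 26.9 and 21.6 in KO (0.65, SE 0.13, adjusted p = 0.0303), and lost its call without KO tumour 1 (0.55, 0.123). Within clusters it passed in cluster 8 (0.94, 0.0295) alone. Bak1, a pore-forming member, was 54.3 and 57.8 in WT and 80.4 and 80.4 in KO (0.47, SE 0.11, adjusted p = 0.0407), and lost its call without WT tumour 1 (0.43, 0.058), KO tumour 1 (0.52, 0.107) or KO tumour 2 (0.41, 0.218). Bmf, another pro-apoptotic member, was low and fell, from 1.28 and 1.53 to 0.4 and 0.287 (-2.11, SE 0.31, adjusted p = 0.0177). Bbc3, the p53 target of this family described above, did not pass.

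**Figure D5:**
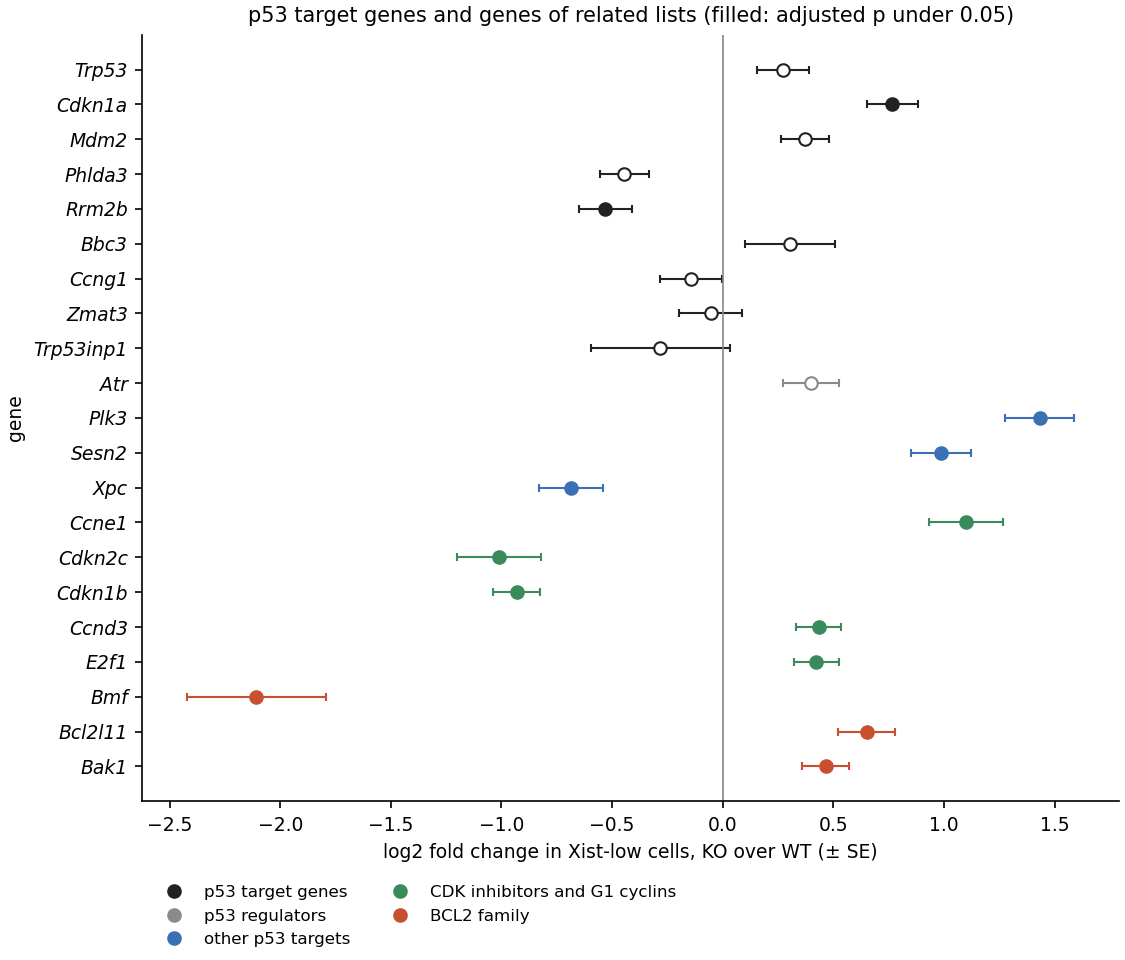
Log2 fold change in Xist-low cells, KO over WT, of the 9 genes and of the genes named from the 4 related lists, coloured by list. Bars are standard errors and filled symbols have an adjusted p under 0.05; values ran from -2.11 for Bmf to 1.43 for Plk3.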

How the data were processed

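Single-cell RNA was measured in 4 tumours, 2 per group, with the 10x Genomics droplet method. The deposited values are raw UMI counts per gene and barcode, not normalized. Per the labels' protocols the authors used Cell Ranger 5.0.1 and the mm10 genome, while the file headers name Cell Ranger 6.1.2. Seurat 5.1.0 is named in the submitters' processing notes without a role. All 55450 identifiers were found in GENCODE vM21 (GRCm38).

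Kept barcodes had 300 or more genes, 500 or more UMIs and no more than 20% mitochondrial UMIs. The top Scrublet scores were removed as doublets, 0.8% per 1000 barcodes, or 1288, 1043, 715 and 728 cells. Scrublet's own threshold marked 0%, 0.00892%, 3.24% and 4.36% in WT 1, WT 2, KO 1 and KO 2 and was not used. Clustering used scanpy 1.11.5 and leidenalg 0.10.2 (2000 variable genes, 30 components, 15 neighbours, resolution 1.0). A class needed 3 markers, each in at least 10% of the cluster's cells and at least 2 times higher than elsewhere. Class sums with at least 50 cells per tumour were tested with edgeR 4.0.16 (TMM, filterByExpr) in R 4.3.3, and DESeq2 1.42.0 was an alternative. SEs were derived from the fold change and the F statistic. With 2 tumours per group, exact permutation gives no p under 0.333.

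The edgeR step was tested on simulated Xist-low counts of 18004 genes and recovered 52.2% of 1.5-fold, 100% of 2-fold and 100% of 4-fold changes, with 2.33% false calls. Only 67, 67 and 66 genes were changed, drawn from genes above a minimum level that Zmat3, Trp53inp1 and Bmf do not reach. The simulated spread was the trend fitted to these same data. The shares therefore do not say how often real changes are found, least of all for low genes. Depth sets precision: counting error is large for Trp53inp1 in Xist-low cells and for neutrophils.

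The 9 genes and the lists were chosen with earlier results of these data known. Genes named from a list were those past the threshold in Xist-low cells, at most 6 by size of change, or, with none, the 1 of smallest p. The likeness rule took the 3 highest correlations of log2(CPM + 1) for Cdkn1a, Mdm2 and Ccng1. Alternatives were another count model, filter, scaling, clustering, doublet rule and cell set, free RNA subtraction, a tumour-number block and leaving out each tumour. The free RNA share was first taken as the median ratio over marker lists, which gave impossible shares up to 118%, and then as the lowest ratio. That change was made after the results were seen, and both are given.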

Additional observations from a re-analysis of the deposited data

Results flagged for a closer look

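The change between KO and WT tumours differed between Xist-low cells and mononuclear phagocytes for 4 of the 9 genes. This was by edgeR's test of the difference itself, beside 10.4% of the 17622 genes tested. These differences of log2 fold changes were 0.70 for Trp53, -0.63 for Mdm2, 1.12 for Phlda3 and -0.91 for Ccng1. For Trp53 the 2 classes had opposite signs (0.27 and -0.53). For Phlda3 both were negative (-0.44 and -1.67), and its level in phagocytes lay near or under the estimated free RNA level. Mdm2 was positive in both (0.37 and 0.90). Ccng1 was -0.14 in Xist-low cells and 0.64 in phagocytes. Free RNA was estimated at 20.6% and 20.5% of phagocyte UMIs in WT and at 7.89% and 7.15% in KO. Xist-low cells made up 75.6% and 69.9% of cells in WT against 15.9% and 30.5% in KO. The Mdm2 difference lost its call in all 9 alternatives run, and that of Trp53 in 3 of the 4 fits with a tumour left out. The Phlda3 difference lost it without KO tumour 1 (1.02, adjusted p = 0.0767) and the Ccng1 difference without KO tumour 2 (-0.79, adjusted p = 0.0687). After subtraction none of the 3 differences with a value (Trp53, Mdm2 and Ccng1) passed, and 53 of 17365 genes were called in all.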

How the results depend on the processing

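Of 706 values of single members under alternatives, 584 kept direction and side of the threshold, 53 lost the call, 31 gained it and 38 changed sign. With single tumours left out, the number of the 9 genes called changed in Xist-low cells, mononuclear phagocytes and T and NK cells. It also changed for the difference between classes, and it did not change in neutrophils and fibroblasts. The counts of all 4 lists in Xist-low cells changed too. The number of all genes called moved as well in these fits, so such counts do not describe the listed genes alone. A lone tumour is there assumed to vary like the other group. Cdkn1a in Xist-low cells kept its call in every alternative over the whole class, with adjusted p from 1.88e-07 upward, but not within clusters 8, 9, 10 and 13.

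Library totals left 1 member called in Xist-low cells and 1 in phagocytes, and moved the median difference between classes by 0.258. Of all genes, 893 rose and 494 fell of 18004 in Xist-low cells, and 146 and 264 of 12829 in phagocytes. DESeq2 called 7 other targets in Xist-low cells and 1 member in fibroblasts, where it called 1440 up and 1274 down of 18004 genes, and 114 up and 53 down of 11579. With no filter 6 other targets, 4 members in phagocytes, 3 in T and NK cells and 2 in fibroblasts were called. Of all genes, 1828 rose and 2061 fell of 30934 in Xist-low cells, and 959 and 757 of 24013 in phagocytes. In T and NK cells it was 1047 and 672 of 24117, and in fibroblasts 543 and 287 of 22292. Keeping doublets gave 5 members in phagocytes and 2 in T and NK cells. Of all genes, 1138 rose and 1358 fell of 13269 in phagocytes, and 683 and 664 of 12889 in T and NK cells. No members (0) were called with free RNA subtracted, by either estimate, or at resolution 2.0, in phagocytes and in T and NK cells. None (0) were different between classes with either free RNA estimate, and 1 was different with the unnamed macrophage cluster. That cluster joined or alone gave 0, as did named, unnamed, CD8 or NK sub-clusters. The median estimate put free RNA at up to 107% of T and NK UMIs and 118% of neutrophil UMIs, so its values are no estimate of a level. The members it left under 3 UMIs in a group have no value.

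The numbers 1 and 2 are not said to pair tumours, and deviations of same-numbered tumours had correlations of -0.118 in Xist-low cells, -0.183 in phagocytes, -0.0707 in T and NK cells, -0.0024 in neutrophils and -0.574 in fibroblasts. With the number as a replicate block 1 member was called in Xist-low cells (not Rrm2b, adjusted p = 0.0886), 1 in phagocytes (not Mdm2, 0.0676) and 3 CDK inhibitors and cyclins. Of all genes, 803 rose and 569 fell of 18004 in Xist-low cells, and 177 and 274 of 12829 in phagocytes. With crossed numbers the block called 5 members in Xist-low cells, 5 in phagocytes, 2 in T and NK cells, 2 in fibroblasts, 3 regulators, 12 other targets and 8 CDK inhibitors and cyclins. Of all genes, 2240 rose and 2214 fell of 18004 in Xist-low cells, and 923 and 969 of 12829 in phagocytes. In T and NK cells it was 453 and 349 of 12611, and in fibroblasts 498 and 318 of 11579.

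Signs changed as follows in Xist-low cells: Mdm2 -0.12 and Phlda3 0.18 within cluster 10, Bbc3 from -0.05 without KO tumour 2 to 0.59 without KO tumour 1, and -0.54 within cluster 9, Ccng1 0.31 and 0.12 within clusters 9 and 10, and Zmat3 0.00 with library totals, from -0.14 to 0.03 without WT tumour 1 or 2, 0.41 and 0.58 within clusters 8 and 9. Atr gave -0.01 within cluster 10, Cdkn2c 0.46 within cluster 9 and Bak1 -0.04 within cluster 13. In phagocytes Rrm2b gave 0.00 with the unnamed cluster and 0.35 in it alone, and Trp53inp1 -0.01 with library totals, -0.11 without WT tumour 1, -0.21 without KO tumour 1 (0.50 without WT tumour 2), and -0.24 and -0.46 with the free RNA estimates. In T and NK cells Trp53 gave 0.62 and Trp53inp1 -0.11 with the median estimate, Rrm2b -0.11 and Trp53inp1 -0.04 without WT tumour 1 (0.55 and 0.90 without WT tumour 2), Rrm2b -0.07 in CD8 T cells, Bcl2l1 -0.39 in NK cells, and Ccng1 -0.09, Zmat3 -0.44 and Bcl2a1b -0.32 in unnamed sub-clusters. Trp53inp1 gave -0.22 in neutrophils with the median estimate. In fibroblasts Cdkn1a gave -0.13 and Bbc3 0.27 without KO tumour 1 (1.22 and -0.63 without KO tumour 2), and Bbc3 0.12 at resolution 2.0 and 0.05 with the median estimate. For the difference between classes Cdkn1a gave 0.02 with no filter, 0.21 with library totals, 0.01 without KO tumour 2 (-0.15 without WT tumour 1), 0.26 and 0.23 with free RNA subtracted and 0.14 with the unnamed cluster, and Bbc3 0.13 with library totals, 0.06 without WT tumour 2 and 0.08 without KO tumour 1 (-0.35 without WT tumour 1). The cause of these differences was not tested.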

Other observations

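Bcl2l11, the gene of the pro-apoptotic protein Bim, was higher in KO tumours in host classes too, a gene picked out after its values were seen. In mononuclear phagocytes Bcl2l11 was at 106 and 104 CPM in WT tumours and 267 and 204 in KO tumours (log2 fold change 1.27, edgeR adjusted p = 0.0191). In T and NK cells it was 200 and 233 in WT and 528 and 476 in KO (1.12, SE 0.18, adjusted p = 0.0201), and it still passed after free RNA subtraction (0.95, adjusted p = 0.0417). The phagocyte call was lost after that subtraction (0.99, adjusted p = 0.169), at resolution 2.0 (1.47, 0.0732) and with the unnamed macrophage cluster (1.32, 0.0576). The T and NK call was lost in CD8 T cells alone, where 0 of 10447 genes rose past the threshold. It was also lost with the median free RNA estimate, where 0 of 10533 genes rose. Over all alternatives in T and NK cells the log2 fold change of Bcl2l11 ran from 0.61 to 1.43.

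Further genes of the 4 lists passed in T and NK cells, likewise picked out after their values were seen, beside 3.66% of the genes tested there. Gadd45a, a DNA damage and stress gene, fell from 22.5 and 22.1 CPM to 10.3 and 8.31 (-1.32, edgeR adjusted p = 0.0256). Its call was lost after free RNA subtraction (-1.45, adjusted p = 0.0892), at resolution 2.0 (-1.01, 0.0509), over named sub-clusters only (-1.09, 0.0811) and in NK cells alone (-0.15, 0.922). Ccnd1, the gene of cyclin D1, fell from 193 and 90.6 to 42 and 55.5 (-1.59, adjusted p = 0.0218), with -0.53 (adjusted p = 0.175) at resolution 2.0. The survival genes Bcl2l1 (0.80, adjusted p = 0.0323) and Bcl2a1b (0.76, adjusted p = 0.0473) rose, and both lost their calls without KO tumour 1 (adjusted p = 0.106 and 0.0554) or KO tumour 2 (0.157 and 0.382), after free RNA subtraction (0.0784 and 0.14) and over named sub-clusters only (0.0731 and 0.0826). Bcl2l1 also lost its call with DESeq2 (0.0519).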
